A study of Homo sapiens with 16 samples.

Results

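The DUSP genes that encode phosphatases acting on MAP kinases were followed through a time course of HGF in cells expressing wt MET and in cells expressing MET∆14. The group held 10 genes (DUSP1, DUSP2, DUSP4, DUSP5, DUSP6, DUSP7, DUSP8, DUSP10, DUSP14 and DUSP16) of the 42351 genes in the count table. They were picked by symbol, with earlier results of these data known. All 10 passed the filter on low counts, which left 15067 genes to test. The labels give the wt MET cells as A549, a lung adenocarcinoma line, whereas EKVX is the wt MET line in the paper. The MET∆14 cells were NCI-H596, a lung adenosquamous carcinoma line that expresses only the allele lacking exon 14 of MET, the HGF receptor. All cells were held without serum for 12 h according to the labels, and for a longer time according to the methods of the paper. PolyA RNA was then taken before HGF (0 h) or after 3, 6 or 12 h with it, in biological duplicates, which gives 8 conditions and 16 libraries. Each MET status was represented by 1 cell line, so that the line and the MET status cannot be told apart. Since 0 h was the only untreated time, HGF and time in culture cannot be told apart either.

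MAP kinases (ERK, JNK and p38) are switched on when a MAP kinase kinase phosphorylates a threonine and a tyrosine in their activation loop, and dual-specificity phosphatases switch them off by removing both phosphates. DUSP1, DUSP2, DUSP4 and DUSP5 are nuclear enzymes whose genes are known as early targets of growth factor signalling. DUSP6 and DUSP7 are cytoplasmic enzymes that prefer ERK, and DUSP8, DUSP10 and DUSP16 prefer JNK and p38. DUSP14 is a small atypical member that lacks the MAP kinase-binding domain of the others. Transcription of several of these genes depends on the kinases they restrain, so that in epithelial tumour cells their RNA is widely read as part of a negative feedback downstream of receptors such as MET.

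On hg38 with the GENCODE v44 annotation, DUSP1 lies at chr5:172768096-172771195, DUSP2 at chr2:96143169-96145440 and DUSP6 at chr12:89347235-89352501, all on the minus strand. DUSP7 (chr3:52048919-52056571), DUSP8 (chr11:1554051-1572271), DUSP10 (chr1:221701424-221742089) and DUSP16 (chr12:12473282-12562863) lie on the minus strand too. DUSP5 (chr10:110497907-110511533) and DUSP14 (chr17:37489891-37513501) lie on the plus strand. The exons of DUSP6 overlap those of an antisense RNA gene over 1105 bases, 28.63% of their length. The use of strand in the counting is not given in the sources used here, so the level of DUSP6 carries that uncertainty. The exons of the other 9 genes overlap no other annotated gene.

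RefSeq (GRCh38.p14) promoter windows were used for 8 of the 10 genes, and the promoters of DUSP4 and DUSP5 were not searched. The 250 bases before the start were searched on both strands for elements that immediate-early genes are known to carry. These were a full cAMP response element (CRE, TGACGTCA) and its short arm (TGACG). An AP-1 site was read as TGANTCA, an ETS core as CCGGAA and an E-box as CACGTG. A FOXO site was read as GTAAACA and a TATA box as TATAAA, and a CArG box was searched as well. The windows of DUSP1, DUSP2, DUSP8 and DUSP16 are printed because the first 3 were the windows with a match and because DUSP8 and DUSP16 moved together through the time course. Each runs 5′ to 3′ on the minus strand, from 250 bases before the start to the base before it, and capitals mark the matches. They lie at chr5:172771196-172771445 (DUSP1), chr2:96145441-96145690 (DUSP2), chr11:1572272-1572521 (DUSP8) and chr12:12562864-12563113 (DUSP16).
DUSP1: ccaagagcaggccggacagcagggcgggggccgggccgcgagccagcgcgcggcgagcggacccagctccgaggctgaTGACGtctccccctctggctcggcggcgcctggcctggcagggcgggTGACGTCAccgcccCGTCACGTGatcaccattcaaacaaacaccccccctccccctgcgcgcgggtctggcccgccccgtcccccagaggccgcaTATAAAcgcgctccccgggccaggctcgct
DUSP2: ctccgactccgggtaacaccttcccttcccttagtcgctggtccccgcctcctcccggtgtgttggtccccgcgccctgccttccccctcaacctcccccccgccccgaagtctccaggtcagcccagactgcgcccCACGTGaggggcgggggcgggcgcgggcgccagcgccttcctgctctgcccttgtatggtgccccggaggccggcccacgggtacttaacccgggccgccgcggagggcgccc
DUSP8: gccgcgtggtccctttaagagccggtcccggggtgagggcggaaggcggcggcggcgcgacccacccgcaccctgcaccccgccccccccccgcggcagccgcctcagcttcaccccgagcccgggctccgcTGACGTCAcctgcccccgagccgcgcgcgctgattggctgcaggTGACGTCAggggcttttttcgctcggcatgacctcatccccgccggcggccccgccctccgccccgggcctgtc
DUSP16: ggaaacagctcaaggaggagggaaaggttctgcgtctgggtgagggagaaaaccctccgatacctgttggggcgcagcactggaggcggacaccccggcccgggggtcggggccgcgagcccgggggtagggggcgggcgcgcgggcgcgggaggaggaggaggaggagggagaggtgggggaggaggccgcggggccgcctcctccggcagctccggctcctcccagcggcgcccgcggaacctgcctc
The DUSP1 window held 1 full CRE, 125 to 118 bases before the start, and 4 short arms of which 2 lie inside it. It also held an E-box at 108 to 103 bases that overlaps another of the arms, and a TATA box at 30 to 25 bases. The DUSP8 window held 2 full CREs, at 118 to 111 and at 74 to 67 bases, and the 4 short arms there are parts of these. DUSP2 held an E-box at 113 to 108 bases. A full CRE was found in 1.65% of the 35116 windows of this length, a short arm in 21.2%, an E-box in 6.34% and a TATA box in 10.7%. The windows of DUSP6, DUSP7, DUSP10, DUSP14 and DUSP16 held none of these letters, nor those of AP-1 (6.57% of all windows), ETS (14.5%), FOXO (2.98%) or CArG (1.16%).

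The libraries held 10158590 to 23909304 counts each, and the common biological coefficient of variation was 0.0868. Replicates differed more than counting noise in every condition, and the pairs that stood furthest apart were MET∆14 at 12 h (chi-square per degree of freedom 34.1) and wt MET at 0 h (9.80), against 2.75 to 4.48 in the other 6. Of the markers checked, the CDKN2A gene that A549 is known to lack was at 0 in all 8 wt MET libraries, and the squamous keratin KRT5 had at most 3 counts there and 22993 to 57442 counts with MET∆14. MTAP, which A549 is also known to lack, had 5 to 23 counts with wt MET and 883 to 3141 with MET∆14. The epithelial keratins KRT8 and KRT18 were high in both lines (at least 493 and 358 CPM, counts over the scaled library size). KRT19, another epithelial keratin, was lower with wt MET (26.7 to 53.1 CPM) than with MET∆14 (931 to 1754 CPM). EPCAM was low with wt MET (0.868 to 2.97 CPM) and higher with MET∆14 (24.4 to 37.4 CPM). Of 8 markers of blood, endothelial and stromal cells, PTPRC, CD3E and LUM had at most 2 counts in any library. The sum of the 8 ranged from 47.6 to 60.2 CPM with wt MET and from 325 to 493 CPM with MET∆14, most of it COL3A1 and CD68 in the latter. The part of these line differences in the results was not tested. In bulk RNA, fewer cells that express a gene and less RNA per cell cannot be told apart.

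Summed per kilobase of exon, transcripts of the 10 genes were more abundant with wt MET at every time, and both lines had their highest sum at 3 h. With wt MET the sum went from 481 ± 17.2 CPM per kb at 0 h to 664 ± 10.5 at 3 h, 523 ± 1.44 at 6 h and 521 ± 5.96 at 12 h (SD, n = 2, as for every value given with ± in the text). The sum with MET∆14 went from 147 ± 6.64 to 282 ± 18.0 and 197 ± 8.49, and at 12 h it was 106 ± 3.70 CPM per kb, below the start. In both lines the 0 h and 3 h ranges did not overlap, but only in MET∆14 was the 12 h sum lower than both 0 h libraries. Of this sum DUSP1 held 54.0% ± 1.11 at 0 h and 50.6% ± 0.460 at 12 h with wt MET. The share of DUSP4 there went from 12.9% ± 3.02 to 6.35% ± 0.133 at 3 h, and that of DUSP5 from 12.7% ± 0.367 to 17.6% ± 0.0974. With MET∆14 the share of DUSP1 went from 37.1% ± 1.45 to 15.5% ± 1.51, and that of DUSP7 from 10.9% ± 0.845 to 30.2% ± 3.94. The leading transcript of the family there was DUSP1 before HGF and DUSP7 after 12 h of it. These sums and shares are descriptions, and no test was run on them.

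**Figure D1:**
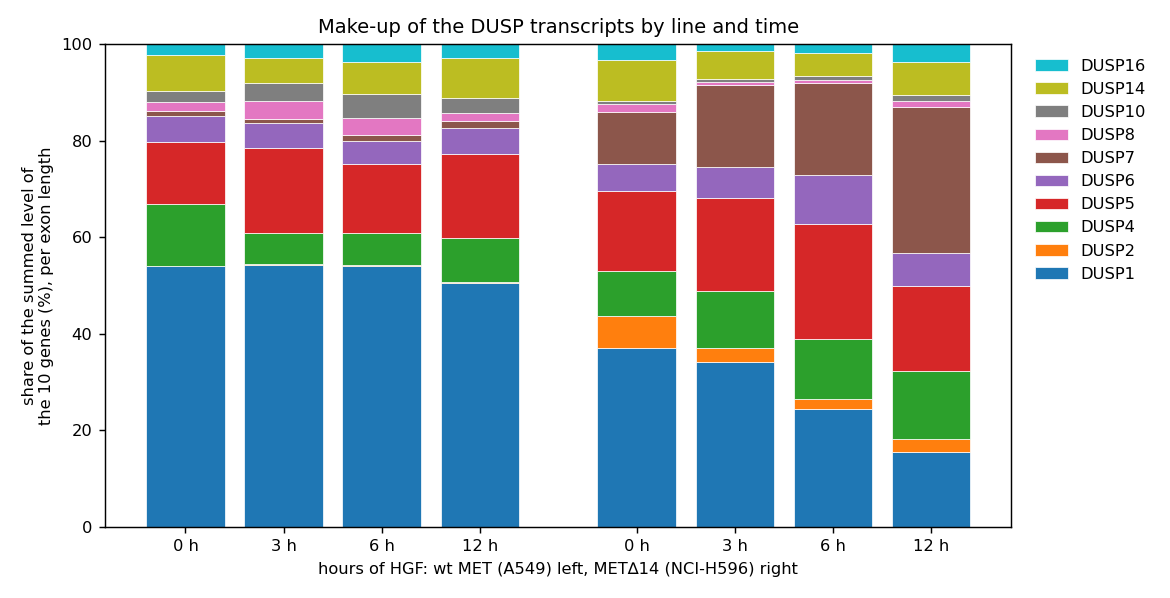
Share of each DUSP gene (%) in the summed level of the 10 genes, in CPM per kilobase of exon, as the mean of 2 libraries for each time of HGF (x axis, hours), with wt MET on the left and MET∆14 on the right. The DUSP1 block stays between 50.6% and 54.3% with wt MET and shrinks to 15.5% with MET∆14, while the DUSP7 block grows there to 30.2%.

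Before HGF the lines differed at all 10 genes, as they did at 80.2% of all genes tested. With MET∆14 8 of them were lower and 2 higher, beside 39.6% and 40.6% of all genes. Per kilobase of exon, wt MET cells at 0 h held most DUSP1 (260 ± 14.6 CPM per kb), followed by DUSP4 (61.6 ± 12.3) and DUSP5 (61.1 ± 3.95), whose ranges overlapped. DUSP14 (36.1 ± 7.70) and DUSP6 (25.9 ± 1.21) came next. DUSP10 (10.9 ± 1.68) and DUSP16 (10.8 ± 0.595) followed, whose ranges overlapped, and then DUSP8 (9.52 ± 0.660), whose range overlapped that of DUSP10 and not that of DUSP16. The levels of DUSP7 (4.73 ± 0.190) and DUSP2 (0.315 ± 0.0735) were lowest. In untreated MET∆14 cells the order was DUSP1 (54.5 ± 0.335), DUSP5 (24.2 ± 3.22), DUSP7 (16.04 ± 1.965), DUSP4 (13.9 ± 1.405) and DUSP14 (12.5 ± 0.659). The ranges of DUSP7 and DUSP4 overlapped, as did those of DUSP4 and DUSP14. DUSP2 (9.51 ± 0.167), DUSP6 (8.27 ± 0.415), DUSP16 (4.74 ± 0.111), DUSP8 (2.18 ± 0.102) and DUSP10 (1.09 ± 0.00398) came after them. The genes that MET∆14 cells had more of were DUSP2, by 4.90 on the log2 scale (SE 0.23, adjusted p = 3.31e-11), and DUSP7, by 1.76 (SE 0.10, adjusted p = 2.96e-10). The largest deficit was that of DUSP10, with a log2 difference of -3.32 (SE 0.18, adjusted p = 1.29e-10), and the smallest that of DUSP16, -1.19 (SE 0.09, adjusted p = 4.04e-09).

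**Figure D2:**
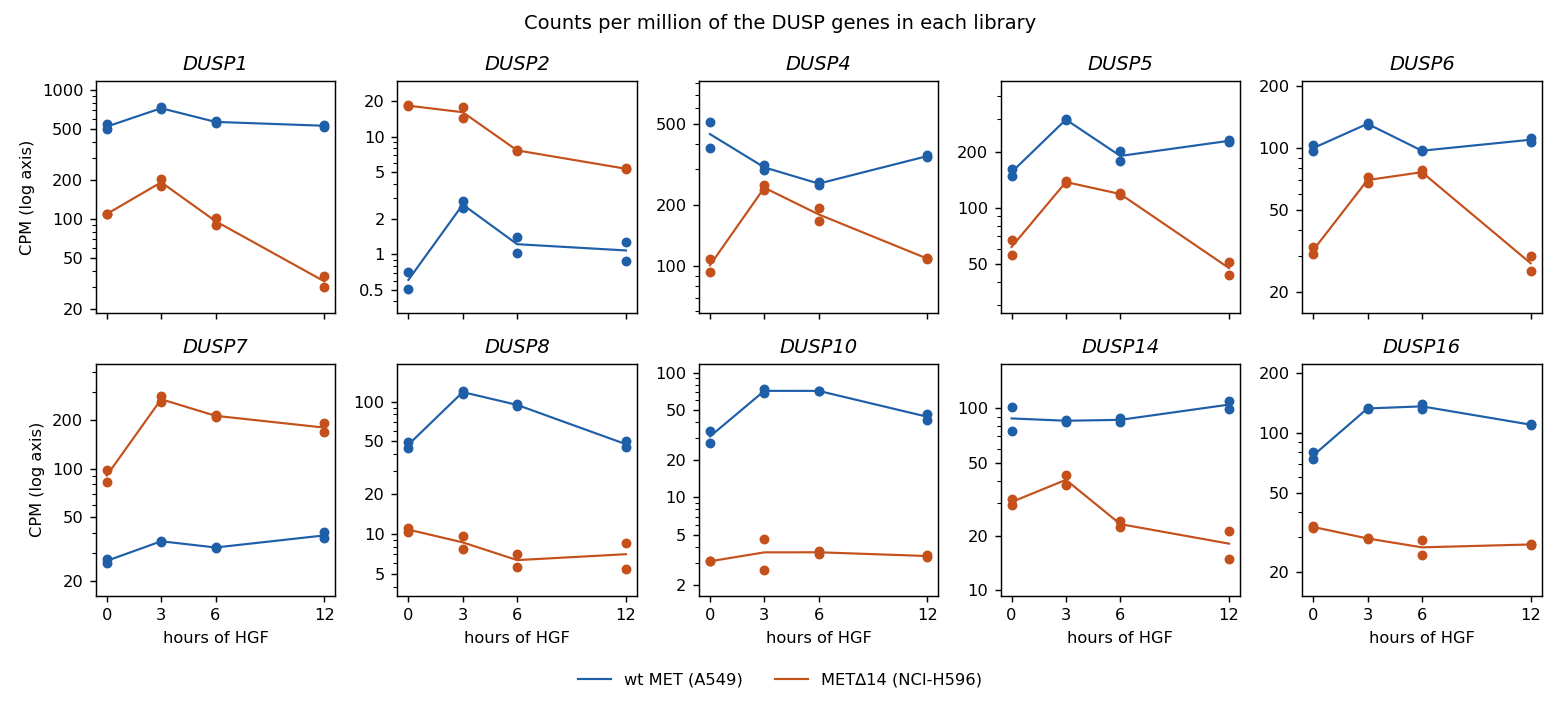
CPM (log y axis, scaled per gene) of each of the 10 DUSP genes in every library against hours of HGF, with 1 point per library and lines through the means of 2 libraries (blue, wt MET; orange, MET∆14). DUSP4 falls with wt MET while it rises with MET∆14, and DUSP8, DUSP10 and DUSP16 rise with wt MET. No rise of DUSP8, DUSP10 or DUSP16 was called with MET∆14.

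Among the nuclear enzymes, DUSP1, which acts on JNK, p38 and ERK, was raised at 3 h in both lines and then fell far below its starting level in MET∆14 cells. With wt MET its 2 libraries stood at 502 and 544 CPM at 0 h, 737 and 715 at 3 h, 556 and 581 at 6 h, and 538 and 523 at 12 h. The 3 h libraries were above all others, a log2 change of 0.47 (SE 0.10, adjusted p = 0.00326), and at 12 h the change was 0.02 (adjusted p = 0.901). With MET∆14 the values were 109 and 110.3 CPM at 0 h, 206 and 181 at 3 h, 102 and 90.8 at 6 h, and 29.9 and 36.1 at 12 h. The rise at 3 h was 0.82 on the log2 scale (SE 0.10, adjusted p = 1.76e-05) and the change at 12 h was -1.74 (SE 0.11, adjusted p = 4.44e-08). The latter ranged from -1.89 to -1.61 when each library was left out in turn. DUSP1 fell with MET∆14 both from 3 to 6 h (log2 change -1.0, adjusted p = 3.38e-05) and from 6 to 12 h (-1.56, adjusted p = 1.61e-06). Of the 15067 genes tested, 424 had a lower log2 change at 12 h of MET∆14. The lines differed in the 12 h response, by -1.77 (MET∆14 minus wt MET, SE 0.14, adjusted p = 1.6e-06), while at 3 h the difference was 0.34 (SE 0.14, adjusted p = 0.109).

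DUSP2, an ERK and p38 phosphatase known from activated immune cells, rose at 3 h with wt MET and fell later with MET∆14. With wt MET it was barely expressed, at 0.506 and 0.707 CPM at 0 h, 2.47 and 2.83 at 3 h, 1.03 and 1.41 at 6 h, and 1.29 and 0.875 at 12 h, or 7 to 37 counts per library. The 3 h libraries were above all others, with a log2 change of 2.10 (SE 0.30, adjusted p = 0.000186). MET∆14 cells held 18.1 and 18.6 CPM at 0 h, 17.8 and 14.5 at 3 h, 7.63 and 7.67 at 6 h, and 5.31 and 5.38 at 12 h. Its log2 change was -0.19 at 3 h (adjusted p = 0.366), and it fell by 1.26 at 6 h (SE 0.16, adjusted p = 1.29e-05) and by 1.78 at 12 h (SE 0.17, adjusted p = 1.64e-06). Most of that fall came between 3 and 6 h (-1.07, adjusted p = 0.000784). Its responses in the lines differed by -2.29 at 3 h (adjusted p = 0.00025), -2.25 at 6 h (adjusted p = 0.000309) and -2.64 at 12 h (adjusted p = 0.000147). The rise with wt MET at 6 h (0.99, SE 0.34, adjusted p = 0.0436) did not hold without the 1st or the 2nd library of 0 h or the 2nd of 6 h (adjusted p = 0.251, 0.0584 and 0.271).

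DUSP4, a nuclear enzyme close to DUSP1 in sequence, fell with wt MET and rose with MET∆14. In wt MET cells it measured 511 and 385 CPM at 0 h, 315 and 299 at 3 h, 252 and 259 at 6 h, and 346 and 352 at 12 h. Both untreated libraries were above every HGF library although they differed from each other. MET∆14 cells had 93.9 and 108 CPM at 0 h, 251 and 237 at 3 h, 193 and 167 at 6 h, and 108 and 109.6 at 12 h. The log2 change with wt MET was -0.54 at 3 h (SE 0.12, adjusted p = 0.00435), -0.81 at 6 h (SE 0.12, adjusted p = 9.55e-05) and -0.36 at 12 h (SE 0.12, adjusted p = 0.0256). The change with MET∆14 was 1.27 at 3 h (SE 0.12, adjusted p = 1.37e-06) and 0.83 at 6 h (SE 0.12, adjusted p = 5.07e-05), and at 12 h the level was close to that at 0 h (0.11, adjusted p = 0.521). The lines differed by 1.81 at 3 h (SE 0.17, adjusted p = 3.67e-06) and by 1.64 at 6 h (SE 0.17, adjusted p = 4.7e-06). The fall with wt MET at 3 h was smaller, -0.32, without the 1st untreated library (adjusted p = 0.0749) and missed the threshold without the 2nd library of 3 h (adjusted p = 0.0632). At 12 h it was -0.14 without the 1st untreated library (adjusted p = 0.39) and -0.55 without the 2nd (adjusted p = 0.00182). It missed the threshold without either 12 h library (adjusted p = 0.114 and 0.0858), whereas the fall at 6 h held in every such fit (-0.98 to -0.59).

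DUSP5, a nuclear enzyme specific for ERK, rose at 3 h in both lines and parted from there. In wt MET cells the libraries stood at 148 and 162 CPM at 0 h, 299 and 295 at 3 h, 202 and 177 at 6 h, and 225 and 232 at 12 h, all HGF libraries above both untreated ones. In MET∆14 cells they stood at 55.7 and 67.2 CPM at 0 h, 139 and 135 at 3 h, 119.9 and 117 at 6 h, and 43.3 and 51.3 at 12 h, with both 12 h libraries below the untreated ones. The log2 change at 3 h was 0.94 with wt MET (SE 0.10, adjusted p = 1.38e-05) and 1.16 with MET∆14 (SE 0.10, adjusted p = 8.39e-07). Their difference of 0.22 was not called (SE 0.14, adjusted p = 0.355). At 12 h DUSP5 was higher than at 0 h with wt MET (0.56, SE 0.10, adjusted p = 0.000591) and lower with MET∆14 (-0.39, SE 0.11, adjusted p = 0.00999). The responses differed by -0.95 (SE 0.15, adjusted p = 0.000308). The drop with MET∆14 from 6 to 12 h was -1.33 (adjusted p = 3.09e-06). The call below the start at 12 h was lost without the 2nd untreated library (-0.24, adjusted p = 0.166) or the 1st 12 h library (-0.27, adjusted p = 0.0644). The 6 h rise with wt MET (0.29, SE 0.10, adjusted p = 0.0354) was lost without the 1st library of 0 h or of 6 h (adjusted p = 0.203 and 0.244).

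Of the cytoplasmic ERK phosphatases, DUSP6, the classical feedback inhibitor of ERK, rose more and for longer with MET∆14. In wt MET cells it stood at 96.8 and 103 CPM at 0 h, 130.3 and 133 at 3 h, 97.6 and 96.9 at 6 h, and 112 and 108 at 12 h. MET∆14 cells held 30.8 and 33.0 CPM of it at 0 h, 72.2 and 67.9 at 3 h, 78.1 and 74.9 at 6 h, and 25.2 and 29.9 at 12 h. The 3 and 6 h libraries lay apart from the others. The 3 h rise was 0.39 on the log2 scale with wt MET (SE 0.08, adjusted p = 0.00418) and 1.13 with MET∆14 (SE 0.09, adjusted p = 2.29e-07). At 6 h the change was -0.04 in wt MET cells (adjusted p = 0.749) and 1.26 in MET∆14 cells (SE 0.09, adjusted p = 4.43e-08). The lines differed by 0.74 at 3 h (SE 0.12, adjusted p = 0.00065) and by 1.3005 at 6 h (SE 0.12, adjusted p = 2.21e-06). With MET∆14 DUSP6 fell by 1.48 from 6 to 12 h (adjusted p = 1.04e-06), which left it at -0.22 against 0 h (SE 0.09, adjusted p = 0.0741).

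DUSP7, the close relative of DUSP6, had the largest 3 h rise of the 10 genes with MET∆14 and was the only one of them called above its start there at 12 h. In MET∆14 cells it went from 83.0 and 98.8 CPM at 0 h to 282 and 259.6 at 3 h, 210.4 and 217 at 6 h, and 193 and 168 at 12 h. No HGF library lay within the range of the untreated ones. In wt MET cells it went from 26.0 and 27.6 CPM to 35.3 and 35.6 at 3 h, 32.2 and 32.7 at 6 h, and 36.9 and 40.2 at 12 h, also above both untreated libraries at each time. With MET∆14 the log2 change was 1.57 at 3 h (SE 0.09, adjusted p = 2.15e-08), 1.23 at 6 h (SE 0.09, adjusted p = 1.03e-07) and 0.99 at 12 h (SE 0.09, adjusted p = 1.86e-06). Of all genes tested, 277 had a higher change at 3 h. With wt MET it was 0.40 at 3 h (SE 0.11, adjusted p = 0.0157), 0.28 at 6 h (adjusted p = 0.057) and 0.52 at 12 h (SE 0.10, adjusted p = 0.00134). The lines differed by 1.17 at 3 h (SE 0.14, adjusted p = 4.75e-05), 0.96 at 6 h (SE 0.14, adjusted p = 0.000126) and 0.47 at 12 h (SE 0.14, adjusted p = 0.0243). The wt MET call at 3 h was lost without the 1st untreated library or either 3 h library (adjusted p = 0.109, 0.0533 and 0.0687). The 12 h difference was lost without the 2nd wt MET library of 0 h, the 1st of 12 h or the 1st MET∆14 library of 0 h (adjusted p = 0.0751, 0.103 and 0.112).

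The phosphatases that prefer JNK and p38 rose with wt MET, and no rise of them was called with MET∆14. Their summed level went from 31.2 ± 1.75 CPM per kb at 0 h to 67.7 ± 0.168 at 3 h and 63.4 ± 0.288 at 6 h with wt MET, and was 40.7 ± 0.812 at 12 h. With MET∆14 the sum was 7.999 ± 0.209, 7.17 ± 0.225, 6.31 ± 0.705 and 6.48 ± 0.454 CPM per kb at 0, 3, 6 and 12 h. The sum of DUSP6 and DUSP7 was higher at 3 h than at 0 h in both lines. It went from 30.7 ± 1.40 to 40.3 ± 0.463 CPM per kb at 3 h with wt MET and from 24.3 ± 2.38 to 65.9 ± 3.65 with MET∆14.

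DUSP8 stood at 44.9 and 49.6 CPM in untreated wt MET cells, 121 and 115 at 3 h, 95.4 and 93.3 at 6 h, and 49.9 and 45.3 at 12 h. It rose with no overlap, and its 12 h values overlapped the untreated ones. In MET∆14 cells it stood at 11.1 and 10.4 CPM at 0 h, 7.65 and 9.62 at 3 h, 7.04 and 5.66 at 6 h, and 8.59 and 5.47 at 12 h, all HGF libraries below both untreated ones. The log2 change with wt MET was 1.32 at 3 h (SE 0.13, adjusted p = 6e-06), 0.997 at 6 h (SE 0.13, adjusted p = 3.76e-05) and 0.01 at 12 h (adjusted p = 0.964). The fall from 6 to 12 h was -0.98 (adjusted p = 0.000153). The change with MET∆14 was -0.30 at 3 h (adjusted p = 0.19), -0.79 at 6 h (SE 0.17, adjusted p = 0.0017) and -0.56 at 12 h (SE 0.17, adjusted p = 0.0179). The lines differed by -1.62 at 3 h (SE 0.21, adjusted p = 8.99e-05) and by -1.78 at 6 h (SE 0.21, adjusted p = 2.18e-05). Their 12 h difference of -0.58 was not called (SE 0.22, adjusted p = 0.0666). At 12 h the MET∆14 change was -0.98 without the 1st 12 h library (adjusted p = 0.000635), -0.34 without the 2nd (adjusted p = 0.089) and -0.53 without the 1st untreated library (adjusted p = 0.0844).

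DUSP10, which acts on JNK and p38, rose in wt MET cells and had a low level in MET∆14 cells. With wt MET it stood at 27.4 and 34.1 CPM at 0 h, 69.0 and 74.0 at 3 h, 71.7 and 71.3 at 6 h, and 41.7 and 46.8 at 12 h, all above the untreated libraries. With MET∆14 every library held between 37 and 82 counts, or 2.60 to 4.64 CPM, and the range at 3 h held the values of all other times. The log2 change with wt MET was 1.22 at 3 h (SE 0.14, adjusted p = 2.19e-05), 1.21 at 6 h (SE 0.14, adjusted p = 1.04e-05) and 0.52 at 12 h (SE 0.14, adjusted p = 0.00829). With MET∆14 it lay between 0.14 and 0.23 at the 3 times, with adjusted p from 0.432 to 0.692. The lines differed by -1.03 at 3 h (SE 0.27, adjusted p = 0.0154) and -0.98 at 6 h (SE 0.26, adjusted p = 0.0103). Their 12 h difference of -0.39 was not called (SE 0.27, adjusted p = 0.346). The 12 h rise with wt MET was lost without the 1st untreated library (0.37, adjusted p = 0.104) or the 2nd 12 h library (adjusted p = 0.079). The 3 h difference was lost without the 2nd MET∆14 library of 0 h (adjusted p = 0.0646) and was -0.65 without the 2nd of 3 h (adjusted p = 0.109).

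DUSP16, a JNK phosphatase with a long C-terminal tail, was above its start at all 3 times in wt MET cells. It stood there at 80.2 and 74.2 CPM at 0 h, 134 and 132 at 3 h, 133 and 139.7 at 6 h, and 109 and 111 at 12 h, with all HGF libraries above the untreated ones. In MET∆14 cells it stood at 34.4 and 33.2 CPM at 0 h, 29.6 and 29.6 at 3 h, 29.0 and 24.4 at 6 h, and 27.8 and 27.4 at 12 h, all of them below. The log2 change with wt MET was 0.79 at 3 h (SE 0.08, adjusted p = 1.2e-05), 0.82 at 6 h (SE 0.08, adjusted p = 3.8e-06) and 0.51 at 12 h (SE 0.08, adjusted p = 0.00025). With MET∆14 it was -0.19 at 3 h (adjusted p = 0.121), -0.35 at 6 h (SE 0.09, adjusted p = 0.00529) and -0.29 at 12 h (SE 0.09, adjusted p = 0.0196). The difference was -0.98 at 3 h (SE 0.12, adjusted p = 6.16e-05), -1.17 at 6 h (SE 0.12, adjusted p = 5.93e-06) and -0.81 at 12 h (SE 0.12, adjusted p = 0.000271). The falls with MET∆14 were small, and the 6 h call was lost without the 2nd 6 h library (-0.23, adjusted p = 0.103) and the 12 h call without either untreated library (adjusted p = 0.0986 and 0.0561).

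DUSP14, the atypical member, did not pass the test at any time with wt MET, where it stood at 74.7 and 101 CPM at 0 h, 86.3 and 84.5 at 3 h, 88.7 and 84.1 at 6 h, and 110.1 and 99.5 at 12 h. With MET∆14 it stood at 31.7 and 29.4 CPM at 0 h, 42.9 and 38.0 at 3 h, 23.9 and 22.3 at 6 h, and 14.9 and 21.1 at 12 h, above both untreated libraries at 3 h and below them afterwards. The log2 change with MET∆14 was 0.40 at 3 h (SE 0.15, adjusted p = 0.0513), -0.41 at 6 h (SE 0.15, adjusted p = 0.0427) and -0.78 at 12 h (SE 0.16, adjusted p = 0.00135). The 12 h change ranged from -1.04 to -0.53 when single libraries were left out. The step from 3 to 6 h was -0.81 (adjusted p = 0.00402, and 0.0633 without the 2nd 6 h library). The lines differed at 12 h, by -1.04 (SE 0.21, adjusted p = 0.00245). The 6 h call with MET∆14 did not hold in 12 of the 16 fits that leave out 1 library, libraries of either line included, with adjusted p up to 0.202.

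**Figure D3:**
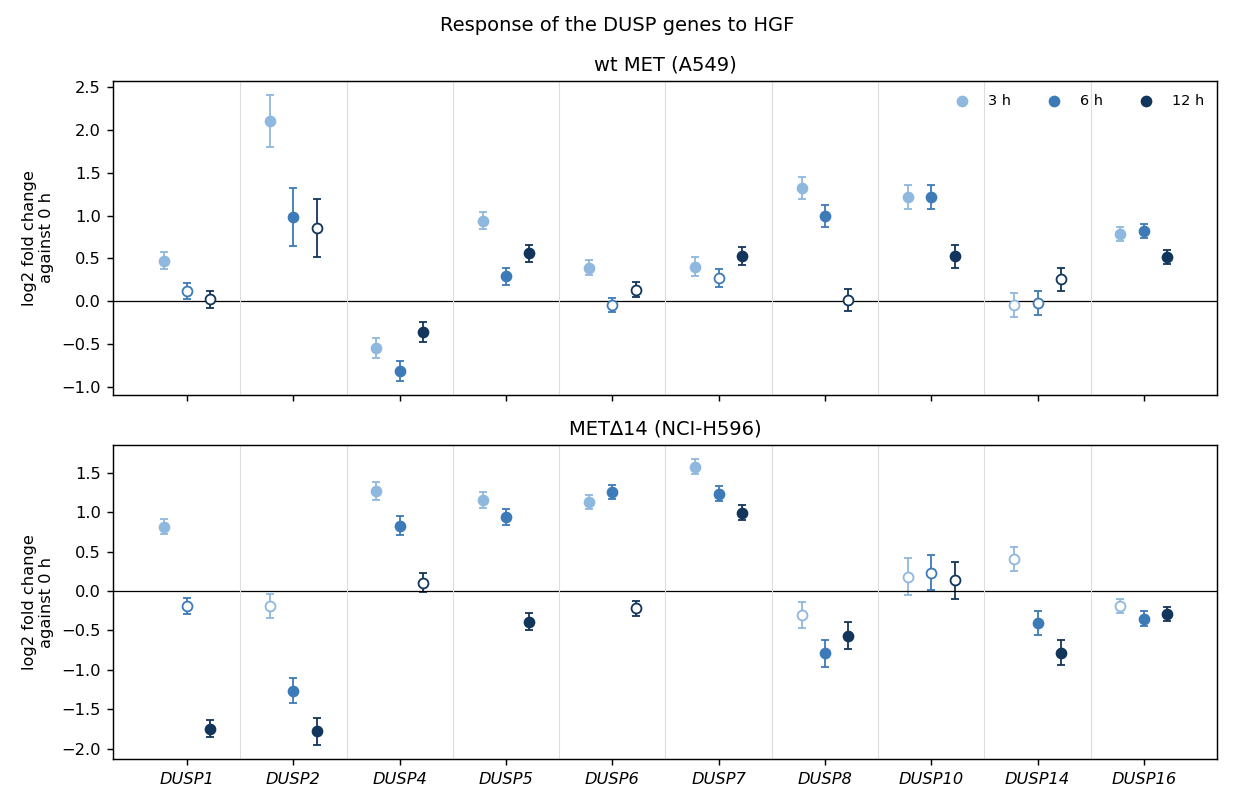
Log2 fold change against 0 h of the same line (y axis) for the 10 DUSP genes at 3, 6 and 12 h of HGF, with wt MET above and MET∆14 below. Points are fitted values over 2 libraries a condition, bars are 1 standard error, and filled points passed an adjusted p of 0.05. With wt MET 8 of the filled 3 h points lie above 0 and that of DUSP4 below it, and with MET∆14 6 of the filled 12 h points lie below 0 and that of DUSP7 above it.

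Counted over the family, most calls with wt MET were rises at each time, whereas with MET∆14 they were rises at 3 h and mostly falls at 12 h. At 3 h of wt MET 8 members rose and 1 (DUSP4) fell, where 10.3% of all genes were called higher and 7.16% lower. These 9 calls stand beside 17.4% of all genes in either direction. At 6 h 5 rose and 1 fell (34.2% of all genes, 16.4% higher and 17.8% lower), and at 12 h 4 rose and 1 fell (35.1%, 16.9% higher and 18.2% lower). With MET∆14 5 members rose at 3 h and none fell (31.7%, 15.5% higher and 16.1% lower), and 4 rose and 4 fell at 6 h (44.1%, 21.6% higher and 22.5% lower). At 12 h only DUSP7 rose and 6 members fell (38.3%, 18.3% higher and 20.1% lower). With the line fitted alone 4 members were called there, and the falls of DUSP5, DUSP8 and DUSP16 were lost. These falls were also lost without some single libraries, as given for each gene. From one time to the next, 3 members were called from 3 to 6 h with wt MET (3.1%) and 4 from 6 to 12 h (11.6%). The steps with MET∆14 were called at 5 members from 3 to 6 h (9.77%) and at 4 from 6 to 12 h (18.6%), all of them falls. Without any 1 of the libraries compared, 0 or 1 members were called from 3 to 6 h and 1 or 2 from 6 to 12 h with wt MET. With MET∆14 2 or 3 were called from 3 to 6 h without either 3 h library or the 2nd 6 h library, and 7 from 6 to 12 h without the 2nd 12 h library. The 5 calls at 12 h with wt MET became 3 without the 1st untreated library or the 2nd 12 h library. The median log2 change of the 10 genes with wt MET was 0.63 at 3 h, 0.28 at 6 h and 0.38 at 12 h, beside -0.04, -0.05 and 0.00 over all genes tested. With MET∆14 it was 0.61, 0.02 and -0.34, beside -0.05, -0.04 and -0.02. Over the 3 times together 9 members were called in each line (40.3% of all genes with wt MET and 54.1% with MET∆14), the exceptions being DUSP14 with wt MET (adjusted p = 0.232) and DUSP10 with MET∆14 (adjusted p = 0.799). The MET∆14 call of DUSP16 in that test (adjusted p = 0.0172) was lost without the 1st or the 2nd untreated library (adjusted p = 0.101 and 0.0637). It was also lost without the filter on low counts (adjusted p = 0.0634), and with the line fitted alone neither DUSP16 (adjusted p = 0.137) nor DUSP8 (adjusted p = 0.0702) was called.

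Set side by side, 4 members (DUSP1, DUSP5, DUSP6 and DUSP7) rose in both lines at 3 h, when 7.03% of all genes were called in the same direction in both, and DUSP4 was called in opposite directions (1.75% of all genes). At 6 h 4 members (DUSP2, DUSP4, DUSP8 and DUSP16) were called in opposite directions (5.32%) and DUSP5 rose in both (13.1% in the same direction). At 12 h DUSP7 rose in both (12.9%), and DUSP5 and DUSP16 were higher with wt MET and lower with MET∆14 (3.51% in opposite directions). With the line fitted alone, the calls of DUSP2 with wt MET and DUSP16 with MET∆14 at 6 h were lost (adjusted p = 0.0597 and 0.0533). So were those of DUSP5 and DUSP16 with MET∆14 at 12 h (adjusted p = 0.0625 and 0.109). Some calls set side by side here were also lost when single libraries were left out, as given for each gene. The test of the difference itself called 7 members at 3 h (17.4% of all genes), 8 at 6 h (30.2%) and 6 at 12 h (24%). At 3 h the log2 change of DUSP4, DUSP6 and DUSP7 was higher with MET∆14 (8.93% of all genes) and that of DUSP2, DUSP8, DUSP10 and DUSP16 lower (8.47%). At 6 h it was higher for DUSP4, DUSP5, DUSP6 and DUSP7 (16.4%) and lower for the same 4 as at 3 h (13.8%). At 12 h it was higher for DUSP7 (13%) and lower for DUSP1, DUSP2, DUSP5, DUSP14 and DUSP16 (11%). Over all times, all 10 members differed in response between the lines (37.6% of all genes). A model in which both lines share 1 time course called 6 members (30.6%). It left out DUSP4 (adjusted p = 0.473), DUSP8 (0.112) and DUSP16 (0.517), whose changes at 3 and 6 h had opposite signs in the lines, as well as DUSP14 (0.358). DUSP2, whose changes at both times also had opposite signs, was called (adjusted p = 0.0147). In that model DUSP6 (adjusted p = 0.0319) missed the threshold without the 1st or the 2nd MET∆14 library of 0 h or the 2nd of 12 h (adjusted p = 0.0612, 0.0613 and 0.0511).

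**Figure D4:**
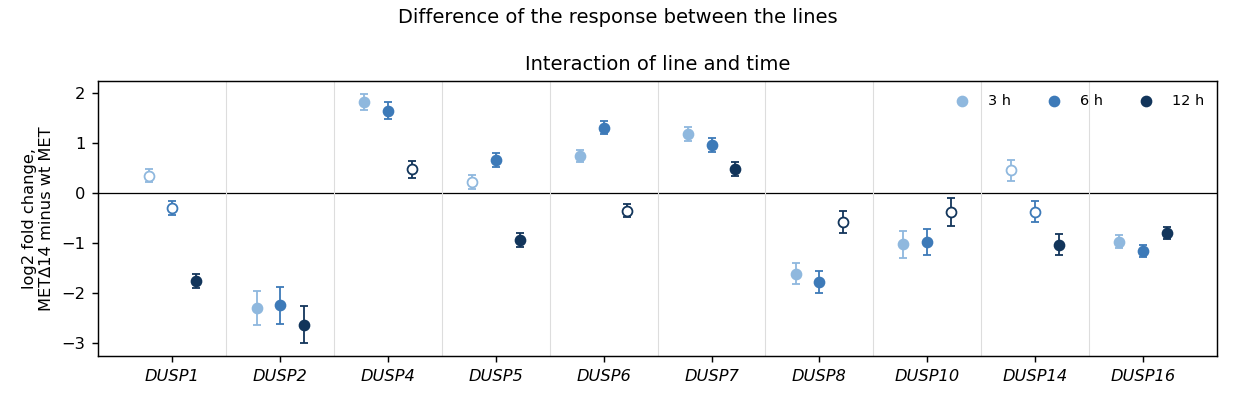
Difference of the log2 fold change against 0 h between the lines (y axis, MET∆14 minus wt MET) for each DUSP gene at 3, 6 and 12 h. Bars are 1 standard error, and filled points passed an adjusted p of 0.05. DUSP4, DUSP6 and DUSP7 lie above 0 at 3 and 6 h, and DUSP2, DUSP8, DUSP10 and DUSP16 lie below 0 at every time. At 12 h the points of DUSP8 and DUSP10 did not pass.

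Over the 16 libraries, with each line centred on its 0 h mean in log2 CPM, DUSP8 and DUSP16 followed each other most closely of the pairs among the 8 members with a sufficient level in both lines (Pearson r = 0.91). DUSP5 and DUSP6 (0.85) and DUSP1 and DUSP14 (0.85) came next, whereas DUSP4 ran against DUSP16 (-0.80) and DUSP8 (-0.73). These correlations share libraries and depth, and are given as a description. Centring takes out the 0 h difference between the lines but not the difference of their responses to HGF. Among 8570 genes with a sufficient level in both lines, the gene most like DUSP1 was GDF15, a secreted stress cytokine (r = 0.97), and the one most like DUSP4 was BDNF, a neurotrophin (0.98). DUSP5 was most like AZIN1 (0.90), an inhibitor of antizyme, DUSP6 most like HNRNPA0 (0.98), an RNA-binding protein, and DUSP7 most like URB2 (0.98), a ribosome biogenesis factor. DUSP8 was most like FAM53C (0.98), with SIK2, a salt-inducible kinase, also among its leading 3 (0.96). DUSP14 was most like MORF4L1 (0.92), a chromatin subunit, and DUSP16 was most like BHLHE40, a repressor of transcription (0.98), with ETS2 also among its leading 3 (0.98). DUSP2 and DUSP10 had too low a level in one of the lines for this comparison. By Spearman's rho only MORF4L1 was still first for its member, and the other first-named genes stood at ranks 4.5 to 51. SIK2 and ETS2 were 3rd by r, behind IP6K2 (0.97) and EPC2 (0.98), and stood at ranks 118.5 and 24.5 by rho.

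Of 13 genes known as outputs of ERK signalling, all tested, 8 rose and none fell at 3 h with wt MET (10.3% and 7.16% of all genes). At 6 h 10 rose and 2 fell (16.4% and 17.8%), and at 12 h 7 rose and 1 fell (16.9% and 18.2%). With MET∆14 8 rose and 1 fell at 3 h (15.5% and 16.1%), 7 rose and 3 fell at 6 h (21.6% and 22.5%), and 7 rose and 4 fell at 12 h (18.3% and 20.1%). The 3 h response differed between the lines at 9 of the 13 (17.4% of all genes). It was higher with MET∆14 at 5 and lower at 4 (8.93% and 8.47%). At 6 h it was higher at 5 and lower at 4 (16.4% and 13.8%), and at 12 h higher at 5 and lower at 6 (13% and 11%). The genes named here were chosen because they rose at all 3 times in both lines, so genes whose direction differed between the lines are not among them. SPRY4, an inhibitor of receptor signalling to RAS, went from 42.3 ± 1.18 CPM at 0 h to 127 ± 5.92 at 3 h with wt MET (log2 change 1.59, adjusted p = 1.07e-06). Its level went from 11.6 ± 2.92 to 68.4 ± 1.55 with MET∆14 (2.54, adjusted p = 1.55e-08). FOSL1, a subunit of AP-1, changed at 3 h by 1.25 in wt MET cells (adjusted p = 1.85e-05) and by 3.04 in MET∆14 cells (adjusted p = 5.39e-09). PHLDA1 changed by 0.74 (adjusted p = 0.000102) and 1.14 (adjusted p = 6.36e-07).

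Of the 10 genes of the MAP kinases themselves, 1 rose and 2 fell at 3 h with wt MET (10.3% and 7.16% of all genes), none rose and 5 fell at 6 h (16.4% and 17.8%), and 2 rose and 6 fell at 12 h (16.9% and 18.2%). Their median log2 change at 6 h was -0.40, beside -0.05 over all genes. With MET∆14 the counts were 1 and 1 at 3 h (15.5% and 16.1%), 1 and 2 at 6 h (21.6% and 22.5%), and 2 and 1 at 12 h (18.3% and 20.1%). The shares of all genes at 3 h also stand beside the counts that follow. Of 18 genes of MAP kinase kinases and their activators, 3 rose and 1 fell at 3 h with wt MET, and 3 rose and 3 fell with MET∆14. MAP2K3, which activates p38, rose in both lines at 3 h, by 0.94 in wt MET cells (adjusted p = 1.39e-05) and by 1.85 in MET∆14 cells (adjusted p = 1.55e-08). MAP2K4, which activates JNK and p38, rose by 0.35 (adjusted p = 0.00234) and 0.94 (adjusted p = 2.29e-07). Of 14 other dual-specificity phosphatases tested, 1 fell at 3 h with wt MET and 3 rose and 3 fell with MET∆14. Of 7 other phosphatases of MAP kinases tested, 1 rose with wt MET, and 2 rose and 1 fell with MET∆14.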

How the data were processed

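Reads were adapter-trimmed and aligned to hg38 with STAR by the authors, who deposited raw counts (whole numbers of reads on each gene, not normalized). The submitters' processing notes name STAR 2.5.0 and RSEM 1.3.2. The annotation and the use of strand are not given in the sources used here. Count columns spell the wt MET line differently from the sample titles and were matched on the remaining part of each name. The labels call that line A549, which the paper's text does not mention, and the paper uses EKVX for its wt MET cells.

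The analysis used edgeR 4.0.16 and limma 3.58.1 under R 4.3.3. The expression filter was filterByExpr with 10 as the minimum count and 15 as the minimum total, and scaling was by TMM. A robust quasi-likelihood model with 1 coefficient per condition was fitted to all 16 libraries, with contrasts of each time against the line's own 0 h and their interactions with the line. The Benjamini-Hochberg adjustment ran over all genes tested (threshold 0.05). The fit was tested on simulated counts. A model of line plus time, the authors' formula, was fitted as well. CPM use TMM-scaled library sizes, and levels per kilobase the exon length of GENCODE v44. Total counts were 10158590 to 23909304 per library.

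All 10 members are named. Of the pathway lists, genes called in the same direction at all 3 times in both lines are named, at most 3 per list. Likeness is Pearson's r of log2 CPM (prior count 2), with up to 3 genes given per member. The members and lists were chosen with earlier results of these data known. Alternatives were DESeq2 1.42.0, its size factors, no filter on low counts, at least 10 counts in every library, each line alone, the replicate number as a block, each library left out, and for likeness Spearman's rho and a prior count of 0.5. Figures were drawn with matplotlib 3.10.9.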

Additional observations from a re-analysis of the deposited data

Results flagged for a closer look

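Each of the 10 genes was flagged because an F test over the 3 times found its response to HGF to differ between the lines (edgeR, adjusted over all genes tested), as did 37.6% of all genes. The adjusted p was 5.42e-07 for DUSP1, 0.000165 for DUSP2, 2.26e-06 for DUSP4, 8.38e-06 for DUSP5 and 7.44e-07 for DUSP6. It was 6.2e-05 for DUSP7, 3.32e-05 for DUSP8, 0.0154 for DUSP10, 0.000429 for DUSP14 and 1.9e-05 for DUSP16. The value for DUSP10, whose MET∆14 counts were the lowest of the 10 genes in that line, was 0.0545 without the 2nd MET∆14 library of 0 h.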

How the results depend on the processing

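With DESeq2's size factors, DESeq2, no filter on low counts and at least 10 counts in every library, each count of members called stayed within 1.5 times its value in the report. The filter of at least 10 counts removed DUSP2 (7 counts in 1 wt MET library), so counts under it do not include that gene. With each line fitted alone, 4 members were called at 12 h of MET∆14 (7 in the joint fit) and 3 from 3 to 6 h (5 in the joint fit), and the cause was not tested. Among genes named with MET∆14, the lone-line fit lost DUSP5, DUSP8 and DUSP16 at 12 h and DUSP14 and DUSP16 at 6 h (adjusted p from 0.0533 to 0.109). DUSP2 at 6 h with wt MET was lost with DESeq2, without the filter and with the line alone (adjusted p = 0.0788, 0.0547 and 0.0597), DUSP14 at 6 h with MET∆14 with DESeq2's size factors and DESeq2 (0.058 and 0.0525), and DUSP16 at 12 h with MET∆14 without the filter (0.0645). DUSP7 at 6 h with wt MET was gained with the size factors, DESeq2, the stricter filter and the line alone (0.0129 to 0.0387), and the line-plus-time model without the filter also called DUSP4 (0.000514), DUSP8 (1.03e-07) and DUSP14 (0.0177). Other calls gained against 0 h with MET∆14 were DUSP14 at 3 h (0.0467 with DESeq2, 0.00406 without the filter) and DUSP6 at 12 h (0.046 with at least 10 counts). Gained differences between the lines were DUSP1 at 6 h (0.0458) and DUSP6 at 12 h (0.0232) with at least 10 counts, DUSP4 at 12 h with DESeq2 and without the filter (0.0327 and 0.0129), and DUSP8 at 12 h with these and with at least 10 counts (0.0465, 0.0272 and 0.0415).

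Over the 16 fits that leave out 1 library each, the members called numbered 3 to 6 at 12 h of wt MET, 0 to 5 from 3 to 6 h and 1 to 5 from 6 to 12 h of wt MET, and 2 to 6 from 3 to 6 h and 4 to 7 from 6 to 12 h of MET∆14. The fit with 0 calls leaves out the 2nd wt MET library of 6 h. Log2 changes that turned sign were not called with all 16 libraries. With wt MET they were DUSP14 at 3 h (-0.24 to 0.22) and 6 h (-0.23 to 0.24), DUSP6 at 6 h (-0.088 to 0.033), DUSP1 (-0.033 to 0.078) and DUSP8 (-0.069 to 0.084) at 12 h, DUSP10 (-0.058 to 0.053), DUSP14 (-0.023 to 0.052) and DUSP16 (-0.0049 to 0.071) from 3 to 6 h, and DUSP2 from 6 to 12 h (-0.50 to 0.080). With MET∆14 they were DUSP10 at 3 h (-0.23 to 0.59) and from 3 to 6 h (-0.37 to 0.45), and DUSP8 (-0.18 to 0.47) and DUSP16 (-0.064 to 0.18) from 6 to 12 h. The change of DUSP8 was called as a rise in 1 of these fits. DUSP14 at 6 h of wt MET was 0.0021 with at least 10 counts and 0.0019 with the line alone. DUSP10 from 3 to 6 h of wt MET was 0.0073 with the size factors, 0.0071 with DESeq2, 0.0092 with at least 10 counts, 0.0010 with the replicate block and 0.0071 with the line alone.

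Samples with the same replicate number did not deviate together (correlations of -0.159 to 0.035 within a line), so the numbers were not taken as pairs. With the replicate number as a block within each line the counts of members stayed within 1.5 times, and the calls lost were DUSP14 at 6 h with MET∆14 (adjusted p = 0.0664), DUSP7 from 3 to 6 h with MET∆14 (0.0524), DUSP2 from 3 to 6 h with wt MET (0.0554) and DUSP6 in the line-plus-time model (0.063). The count over all genes from 3 to 6 h of wt MET was 309 with the block and 467 without it. It was 860 without the filter and 951 with the line alone, which also gave 2801 for 1743 from 6 to 12 h of wt MET, 695 for 1472 from 3 to 6 h and 1422 for 2806 from 6 to 12 h of MET∆14. Likeness was steady to the prior count, and with Spearman's rho 9 of 24 values moved by 0.05 or more. Depth limits DUSP2 with wt MET (7 to 37 counts) and DUSP10 with MET∆14 (37 to 82 counts).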
